A study of Mus musculus with 2 samples.

Results

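The genes described here are core components of cytokine signalling through Janus kinases (JAK), signal transducers and activators of transcription (STAT) and their feedback inhibitors: Cish, Socs1, Socs2, Socs3, Jak1, Jak2, Jak3, Stat3, Stat5a and Stat5b. The group is defined by gene symbol in the platform annotation of a two-colour array, and it was drawn up with earlier results of these data known. Of the 10 genes, 9 had a probe that carried no other symbol, out of 4331 genes measured in that way. Jak1 had no such probe and has no value here. Socs2 and Jak2 had 2 probes each and the other 7 genes 1 probe each.

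Total RNA was compared between CD4+ alpha beta T cells from LATY136F mouse spleens and the same cells from wildtype spleens. In LATY136F mice 1 tyrosine of Lat is replaced by phenylalanine; Lat is an adaptor in the T cell membrane that, once phosphorylated, gathers the enzymes acting downstream of the antigen receptor. Per the labels, both genotypes' cells were purified by positive selection for CD4 on magnetic beads and by flow sorting. The 2 arrays form a dye-reversal pair that held both RNAs: array 1 had LATY136F RNA in channel 2 and wildtype RNA in channel 1, and array 2 had LATY136F RNA in channel 1 and wildtype RNA in channel 2. The sources used here give neither strain, age, sex, number of mice nor pooling, and do not say whether each array held its own extracts.

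The arrays were therefore counted as 1 biological comparison with no test, and the spread between them may be technical only. Values are log2 ratios of LATY136F over wildtype, centred on each array's median over all probes, and ± gives 0.5 times the difference between the arrays. The direction is likely but not stated by the sources: ratios were read as channel 2 over channel 1, and the sign of array 2 was turned, since the columns as deposited had a Pearson r of -0.21 over 8014 probes; Spearman's rho was weaker, at -0.06. Under the other reading all directions given here would swap. Calls, higher or lower, needed a 2-fold difference the same way on both arrays, that is, a log2 ratio of 1 or more, or of -1 or less.

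Cytokine receptors of this class have no kinase of their own and carry JAK kinases on their intracellular tails. Binding of a cytokine brings the JAKs together, they phosphorylate the receptor, and STAT proteins dock there, are phosphorylated in turn and move to the nucleus. Among the genes that STATs switch on are the SOCS genes (suppressors of cytokine signalling) and Cish, whose proteins bind the receptors or the JAKs and damp the signal. In T cells, Jak1 and Jak3 serve the receptors that share the common gamma chain, such as those for interleukin-2, interleukin-4 and interleukin-7. Stat5a and Stat5b are the main STATs of interleukin-2 and interleukin-7, and Stat3 that of interleukin-6 and interleukin-21.

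The promoters of the 4 genes that were called are shown because many STATs bind DNA at a palindrome of the form TTCNNNGAA, which reads the same on both strands. Each sequence runs 5′ to 3′ on the gene's own strand, from RefSeq (GRCm38.p6), with matches to this motif in capitals. The Cish sequence runs from 250 bases before the annotated start to 20 bases after it, those of Jak2 and Jak3 hold the 250 bases before the start, and that of Socs3 is a stretch of 30 bases around its match.

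Cish, chr9:107296409-107296678, + strand: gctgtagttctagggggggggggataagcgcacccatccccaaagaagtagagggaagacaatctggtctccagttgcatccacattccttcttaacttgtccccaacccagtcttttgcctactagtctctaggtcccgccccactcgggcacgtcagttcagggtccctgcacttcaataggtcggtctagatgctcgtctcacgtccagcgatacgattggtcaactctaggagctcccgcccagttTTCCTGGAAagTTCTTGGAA
Socs3, chr11:117969501-117969530, - strand: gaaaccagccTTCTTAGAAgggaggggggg
Jak2, chr19:29251553-29251802, + strand: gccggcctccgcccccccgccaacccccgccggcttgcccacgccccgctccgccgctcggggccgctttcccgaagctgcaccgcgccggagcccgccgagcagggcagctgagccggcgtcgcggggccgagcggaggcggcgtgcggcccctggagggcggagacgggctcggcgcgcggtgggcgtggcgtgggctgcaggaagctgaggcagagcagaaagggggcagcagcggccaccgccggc
Jak3, chr8:71676133-71676382, + strand: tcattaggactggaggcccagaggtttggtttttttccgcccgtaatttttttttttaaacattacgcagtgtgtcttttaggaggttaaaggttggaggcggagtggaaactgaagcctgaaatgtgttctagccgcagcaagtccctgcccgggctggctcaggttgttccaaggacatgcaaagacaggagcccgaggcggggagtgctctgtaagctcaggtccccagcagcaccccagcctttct

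A promoter window of 300 bases, from 250 bases before the start to 50 after it, was at hand for 9 of the 10 genes. Cish held 2 matches, at bases 1 to 9 and 12 to 20 counted from the annotated start, and Socs3 held 1, at bases -154 to -146. RefSeq lists a further start of Socs3 upstream of this window. The windows of the other 7 genes held none, and none of the 9 held the same ends with a spacer 1 base longer, the form that Stat6 prefers. Of all 32851 mouse promoter windows, 8.30% held TTCNNNGAA at least once and 0.457% held it 2 or more times, while 6.95% held the form with the longer spacer. Among the measured genes with a window, TTCNNNGAA stood in 15 of 141 genes called higher (10.6%), 3 of 32 called lower (9.38%) and 8.96% of all 3427. A match is a run of letters and not a shown binding site.

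Of the 9 measured genes, 4 were higher in LATY136F cells (Cish, Socs3, Jak3 and Jak2), none was lower and 5 were not called. Over all 4331 genes the share called higher was 4.20% and the share called lower 0.970%. The median log2 ratio of the 9 genes was 0.90, against 0.0004 over all genes. At a threshold of 1.5-fold on both arrays 6 of the 9 were higher, with Socs1 and Socs2 added, where 7.83% of all genes were. The feedback inhibitors and the kinases made up these 6, and the 3 STAT genes stood near 0.

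**Figure D1:**
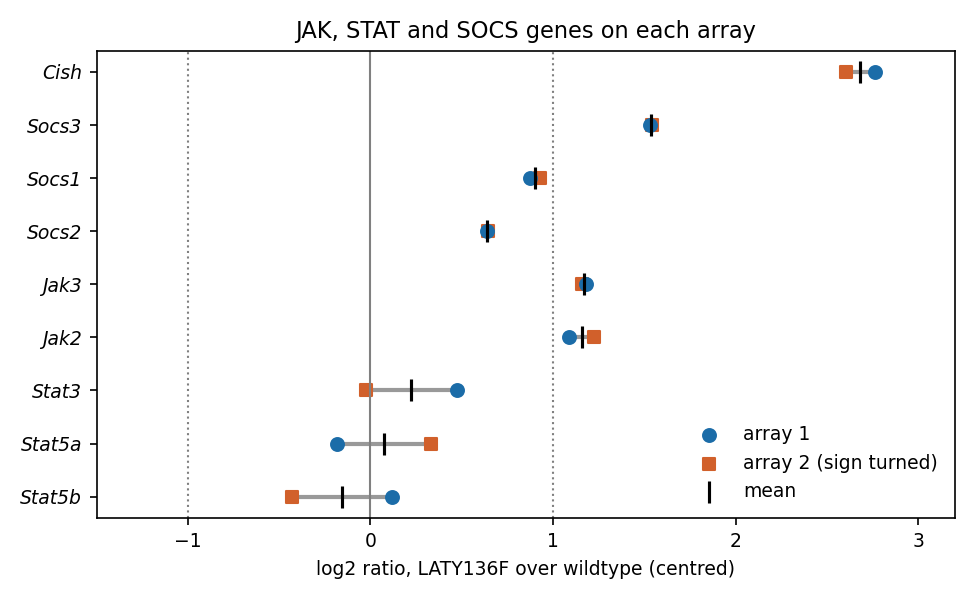
Log2 ratio of LATY136F over wildtype (horizontal axis) for each of the 9 measured genes on array 1 (circles) and array 2 (squares, sign turned), with the mean as a tick and the arrays joined by a bar. Dotted lines mark 2-fold; Cish, Socs3, Jak3 and Jak2 lie beyond it on both arrays, and the bars of Stat3, Stat5a and Stat5b cross 0.

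Cish, a receptor-binding inhibitor that STAT5 induces, had the highest ratio of the group. The deposited log10 ratios of its probe were 0.828 on array 1 and -0.777 on array 2, before array 2 was turned. Centred, these are log2 ratios of 2.76 and 2.60, or 6.78-fold and 6.08-fold, with a mean of 2.68 ± 0.08 (6.42-fold). The lower of the 2 values stands above every value of the other genes of the group, and Cish ranked 27th of 4331 genes by its mean.

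Socs3, which inhibits JAKs at receptors of the interleukin-6 type, gave log2 ratios of 1.53 on array 1 and 1.54 on array 2. Its mean of 1.54 ± 0.005 (2.90-fold) ranked 100th of all genes. The arrays were 0.01 apart on this scale, a smaller gap than for nearly all genes: 0.5 times the gap stood at the 1.94th percentile of all genes.

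Socs1, a direct inhibitor of JAK kinase activity that restrains interferon-gamma and gamma chain cytokine signals, lay just short of the 2-fold line. It gave 0.87 on array 1 and 0.93 on array 2, a mean of 0.90 ± 0.03 (1.87-fold), at the 93.1st percentile of all genes. It was not called.

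Socs2, best known as an inhibitor of growth hormone signalling and a STAT5 target, was not called either. Averaged over its probes it gave 0.64 on each array, a mean of 0.64 ± 0.005 (1.56-fold), but the probes differed. One gave 0.94 on array 1 and 1.03 on array 2, and the other gave 0.33 on array 1 and 0.26 on array 2. The gaps between the arrays ran opposite ways for the 2 probes, so the ± of their average understates them. The gap between the probes, 0.98 against 0.30 by their means, far exceeds the gap between the arrays for either probe, so the ratio of Socs2 depends on which probe is read. Each probe alone lay above 0 on both arrays.

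Among the kinases, Jak3, which in blood cells pairs with the common gamma chain, gave 1.18 on array 1 and 1.16 on array 2. Its mean was 1.17 ± 0.01 (2.25-fold). Jak2, the kinase of the erythropoietin, growth hormone, interleukin-3 and interferon-gamma receptors, gave 1.09 and 1.23, a mean of 1.16 ± 0.07 (2.23-fold). Both of its probes were beyond 2-fold on both arrays, one with 1.15 on array 1 and 1.38 on array 2 and the other with 1.02 and 1.08. The ratio of Jak3 lay inside the range of Jak2 over the arrays, so they cannot be ordered. They stood 193rd and 198th of all genes and were the members nearest to the threshold among those called, with Socs1 next below it.

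The STAT genes had no settled direction. Stat3 gave 0.47 on array 1 and -0.03 on array 2, a mean of 0.22 ± 0.25. Stat5a gave -0.18 on array 1 and 0.33 on array 2, a mean of 0.08 ± 0.26. Stat5b gave 0.12 on array 1 and -0.43 on array 2, a mean of -0.16 ± 0.27. All 3 changed sign between the arrays, as did 44.2% of all genes, and their ranges overlap one another. The 3 genes are direct neighbours on mouse chromosome 11 in the RefSeq gene table. Stat5a and Stat5b are close in sequence, and whether their probes share target RNA was not tested. No ratio of the 3 genes was further than 1.39-fold from equal on either array, and the arrays measure neither STAT protein nor its phosphorylation.

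The order of the ratios was thus Cish, then Socs3, then Jak3 and Jak2, then Socs1, with the STAT genes last. With probes averaged, the ranges of Cish, Socs3, the kinase pair and Socs1 over the arrays did not overlap. The single probes of Socs2, from 0.26 to 1.03, span Socs1 and part of the range of Stat3. They also just reach the lower probe of Jak2, which gave 1.02 on array 1. The 6 genes of the feedback and kinase groups had the same sign on both arrays, and 0.5 times the gap between their arrays was at most 0.08, under the median of 0.15 over all genes. For Stat3, Stat5a and Stat5b it was above that median, at 0.25 to 0.27. How bright each probe was is unknown, so whether signal strength moves with this split was not tested. No value of the group was at exactly 0 or at the 100-fold limit of the table.

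**Figure D2:**
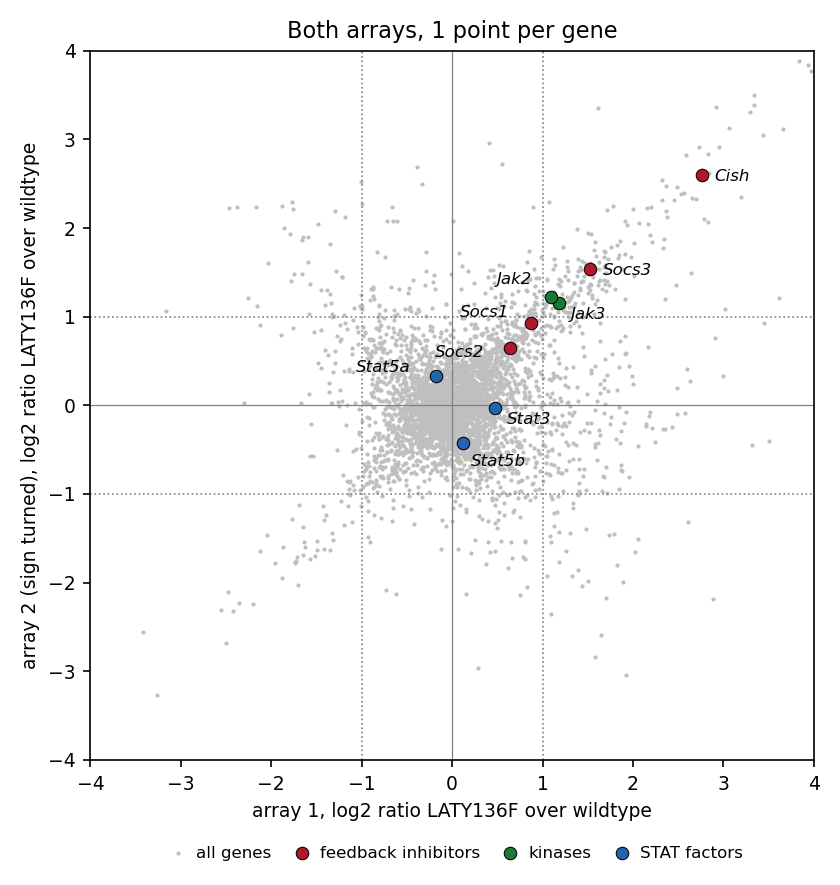
Log2 ratio of LATY136F over wildtype on array 1 (horizontal) against array 2 (vertical, sign turned), 1 point per gene, with 10 genes outside the plotted range of 4 on either axis. The feedback inhibitors (red) and kinases (green) lie along the diagonal above 0, and the STAT genes (blue) lie near the origin and off it.

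With 2 arrays, many genes share the values of a member by position alone. Within a distance of 0.25 log2 units over both arrays, Cish had 2 other genes, Socs3 38, Jak3 48, Jak2 48 and Socs1 74, while Stat5a had 334. No gene was named as similar on that basis.

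Of 5 other measured genes of the same families (Tyk2, Stat2, Stat4, Stat6 and Socs6) none was called, and the median of their means was -0.01. Stat6, the STAT of interleukin-4, gave -0.16 on array 1 and -0.15 on array 2. Stat4 gave 0.14 on array 1 and 0.17 on array 2, and by their means Stat6 and Stat4 were furthest from 0. Tyk2, the JAK of the interleukin-12 and type I interferon receptors, gave -0.60 on array 1 and 0.81 on array 2 and has no direction here. Of 10 other regulators of the pathway none was called either (median -0.10). The furthest from 0 were Ptpn1, a phosphatase that acts on JAKs, at 0.46 ± 0.06, and Ptpn6, the phosphatase SHP-1, at -0.42 ± 0.05.

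Upstream of the kinases, 3 of 31 measured receptor chains were higher and none lower (median 0.09). These were Il12rb1, a chain of the interleukin-12 and interleukin-23 receptors that carries Tyk2, at 2.83 on each array (2.83 ± 0.002), Epor, the erythropoietin receptor, which signals through Jak2, at 2.42 ± 0.06, and Crlf2, the receptor chain for thymic stromal lymphopoietin, at 1.38 ± 0.17. Epor is also a marker of erythroid cells. The measured interleukin-2 receptor chains were not called: Il2rb gave 0.25 on array 1 and 0.58 on array 2, and Il2ra gave 0.20 and -0.77. Il7r stood at 0.07 ± 0.05 and Il21r at -0.02 ± 0.02. The interleukin-6 receptor chains stood at -0.14 ± 0.63 (Il6ra) and -0.11 ± 0.13 (Il6st). Il2rg and Il4ra were not measured by a probe of their own.

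Of 21 measured ligands of JAK-coupled receptors 4 were higher and none lower (median 0.10). Il6, which signals through Stat3, gave 5.43 on array 1 and 3.65 on array 2 (4.54 ± 0.89). Il13, which signals through Stat6, stood at 3.39 ± 0.27, Ebi3, a subunit of interleukin-27, at 1.41 ± 0.14, and Il10, another Stat3 cytokine, at 1.22 ± 0.11. Il2 stood at -0.11 ± 0.25 and Il7 at 0.002 ± 0.07. Over the 21 ligands, 6 were above 0 on both arrays, 1 was below it and 14 had opposite signs, so many have no direction here.

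Lists of genes known as STAT targets were mixed, as the plot of the lists shows; Myc and Pim1 stand on both the STAT5 and the STAT3 list. Of 13 STAT5 targets outside the group 1 was higher, Gzmb, a cytotoxic protease (3.89 ± 0.05), and none lower, with a median of -0.01. Over that list 6 genes were above 0 on both arrays, 5 were below it and 2 had opposite signs. Among those not called, Prdm1, a transcriptional repressor, stood at 1.22 ± 0.31, Id1 at 0.96 ± 0.50, Bcl2, a survival factor, at -0.69 ± 0.13 and Myc at -0.51 ± 0.06. Of 12 STAT3 targets 2 were higher, the transcription factors Batf (2.01 ± 0.23) and Irf4 (1.22 ± 0.18), with a median of 0.36. Of 8 STAT6 targets Gata3 (2.93 ± 0.02), a transcription factor of T helper 2 cells, and Il17rb (2.19 ± 0.04), a receptor chain, were higher. Fcer2a, a receptor of B cells as well, was lower at -1.14 ± 0.01.

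**Figure D3:**
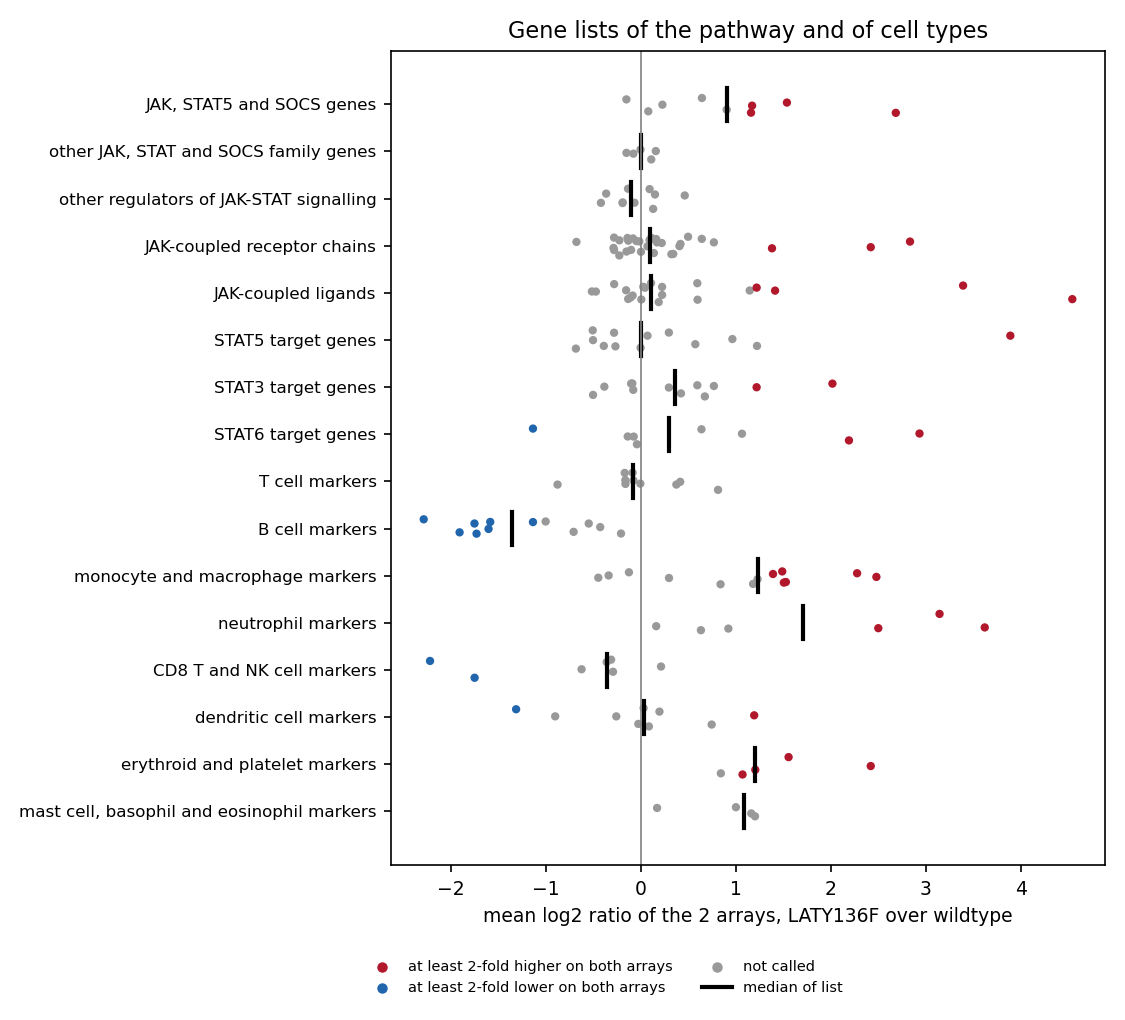
Mean log2 ratio of LATY136F over wildtype for each measured gene of 16 lists (1 row per list, 1 point per gene, spread vertically at random), with black bars at list medians. Red points were at least 2-fold higher and blue points at least 2-fold lower on both arrays; the JAK, STAT5 and SOCS genes have a median of 0.90, and the other JAK, STAT and SOCS family genes one of -0.01.

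Markers of other cells differed beside these genes, and in sorted bulk RNA a change in the share of a cell type and a change in RNA per cell cannot be told apart. The table holds ratios only, so no summed marker level can be given for either genotype. None of 10 T cell markers was called (median -0.09), with Cd4 at -0.17 ± 0.09; the furthest from 0 were Cd247, at -0.88 ± 0.46, and Cd5, at 0.81 ± 0.11. Of 13 monocyte and macrophage markers 6 were higher and none lower (median 1.23): C1qc, Lyz1, Vcam1, Fcer1g, Adgre1 and C1qa, from 1.39 to 2.48. The 13 did not all point the same way: 10 were above 0 on both arrays, 2 were below it and 1 had opposite signs. Of 6 neutrophil markers 3 were higher (Il1r2, Lcn2 and Ngp; median 1.71), and of 5 erythroid and platelet markers 4 were (Epor, Pf4, Itga2b and Hba-a1; median 1.20). None of 4 mast cell, basophil and eosinophil markers was called, but all 4 were above 0 on both arrays (median 1.08). Ms4a2 at 1.20 ± 0.23 and Fcer1a at 1.16 ± 0.83 were furthest from 0. Of 12 B cell markers 7 were lower and none higher (median -1.36): Cd79b, Ighm, Cr2, Cd72, Blnk, Cd22 and Fcer2a. Cd8b1 and Klrd1 were lower among 7 CD8 T and natural killer cell markers (median -0.36). Of these 7, 5 were below 0 on both arrays and 2 had opposite signs. Among 9 dendritic cell markers (median 0.03) Cst3 was higher and Ly6d lower. Cish, Socs3, Jak2 and Jak3 are expressed in myeloid cells as well as in T cells. The part of other cells in their ratios was not tested.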

How the data were processed

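Two-colour arrays compared LATY136F with wildtype CD4+ alpha beta T cell RNA on 2 arrays. The authors deposited 1 log10 ratio per probe and array, for 8014 probes. The log10 base is inferred from the highest value of array 1, exactly 2 (100-fold), and is likely, not certain. The sources used here do not state how background was corrected or how values were normalized or filtered. Spot signals were not analysed here, so signal over background is unknown, and the number of arrays limits the precision.

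Array 2 was multiplied by -1, values were multiplied by 3.32 (log2 of 10), and the median over all probes was subtracted per array. By the platform annotation, 4654 probes had a single symbol, 73 had several and 3287 were unnamed. Gene IDs of 4640 of the single-symbol probes were found in RefSeq's gene table (GRCm38.p6). Where a gene had more than 1 probe, the mean was taken (Python 3.11.15, pandas 2.3.3).

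Genes named are every member, every called gene of 15 further lists (another list is not reported here), the 2 furthest from 0 where none was called, and Cd4, Stat6, Tyk2, Il6 and receptor chains fixed by name; Prdm1, Id1, Bcl2, Myc, Il2, Il7 and Pim1 were named after their values were seen. Members and lists were chosen with earlier results of these data known. Promoters came from RefSeq windows, matched by symbol. Alternatives were tried for centring, scaling, probe choice, arrays, direction, log base, zeros and threshold.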

Additional observations from a re-analysis of the deposited data

How the results depend on the processing

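The group kept 4 higher and 0 lower genes when centring was omitted. The mean of the arrays and either array alone gave these counts too, but could only add calls, since called genes pass 2-fold on both arrays. Reading each gene from its strongest probe also left them unchanged. Only Socs2 and Jak2 offered a choice, and both probes of Jak2 were beyond 2-fold. Leaving out probes at exactly 0 could not affect the group, which had none. Scaling both arrays alike barely moved its ratios (Stat3 from 0.2238 to 0.2237), so it tested little. At 1.5-fold the higher and lower genes of the group numbered 6 and 0, and at 3-fold 1 (Cish) and 0. In the opposite direction of the ratio they would be 0 higher and 4 lower, with Cish at -2.68, Socs3 at -1.54, Jak3 at -1.17 and Jak2 at -1.16. All genes would be 42 higher and 182 lower, and the related pathway lists 1 and 12 in place of 12 higher and 1 lower of 94 measured genes. Read as log2, the table would hold no called member (Cish at 0.81), 13 higher and 0 lower of all genes, and 2 and 0 of the related genes. A threshold of 1.5-fold gave 339 higher and 127 lower of all genes, and 3-fold gave 69 and 19, with 0 lower related genes. Single arrays, where a call needs 1 array, gave 341 to 408 higher and 145 to 151 lower of all genes, and 16 to 19 higher and 1 to 5 lower of the related genes. Each ratio already pairs the 2 genotypes within an array. No test over pairs was made, because the dye-reversal pair was counted as a single comparison.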
